A study of Mus musculus with 12 samples.

Results

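The transcription factors described here are 10 genes that specify spinal interneurons: EBF1, EBF2 and EBF3 of the early B-cell factor family, PAX2, LHX1, LHX5 and EN1 of mainly inhibitory classes, LBX1 of both kinds, and LMX1B and TLX3 of excitatory classes. They were taken by gene symbol from a table of pooled expression values that listed 13957 genes in all. All 10 were among the 13647 genes listed above the lesion, and 9 were among the 12338 genes listed below it, where EBF3 was not listed. The group was put together around EBF3, which was selected on measured values of this comparison, so the genotype ratios are given as descriptions and nothing is inferred from them.

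Bulk RNA was sequenced from the spinal cord of male mice. They received a contusion at thoracic level 9 at 4 months of age and were studied 14 days later. All mice of the 4 groups expressed human ApoE4, the apolipoprotein E variant tied to Alzheimer's disease risk, and all had the contusion. Segments above and below the lesion were taken from 2 genotypes, synj1+/+ with both alleles normal and synj1+/- with 1 allele inactive. This gave 4 groups of 3 libraries. The study lists 3 mice per genotype for RNA sequencing, and the labels do not say whether both segments came from the same mice. Synaptojanin 1 is a phosphoinositide phosphatase of nerve terminals, and the study asked how its reduction changes the injured cord. The expression values of the table are the authors' values pooled over the 3 libraries of each group, and the columns of the authors' own test were not used. From pooled values neither a spread between animals nor a test can be computed, and every difference given here is without a replicate check. Per the study's methods, reads were removed at random until all libraries of a site had the same number.

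SYNJ1 itself went against the labels. Its deposited value above the lesion was 1905 for the label synj1+/+ and 2404 for the label synj1+/-, a log2 ratio of 0.34, and below the lesion it was 1847 and 2593, a log2 ratio of 0.49. The pooled value labelled synj1+/- was therefore the higher of the pair above and below the lesion. The part of the gene that the inactive allele lacks is not given in the sources used here, and reads from the rest of the transcript would not check the label. The study's methods state that the mice were genotyped by PCR. By RT-qPCR above the lesion, the study reports less synj1 mRNA in synj1+/- than in synj1+/+ ApoE4 mice, the direction of the labels. APOE went from 767 to 549 above the lesion and from 477 to 564 below it. Every ratio that follows is the value labelled synj1+/- over the value labelled synj1+/+ of the same site. With the labels exchanged, every log2 ratio would have the opposite sign, and higher would read as lower.

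As background, spinal interneurons arise from ordered progenitor domains, and each class keeps a code of transcription factors as it matures. In the dorsal horn, LBX1 marks the late-born neurons. PAX2, LHX1 and LHX5 then accompany GABA and glycine synthesis, and TLX3 and LMX1B accompany glutamate release. EN1 marks the V1 class, ventral inhibitory neurons that shape motor output. EBF factors are helix-loop-helix proteins that bind DNA as dimers and act after the proneural factors, when new neurons leave the cell cycle. Several of these genes also work elsewhere: EBF1 directs B cell commitment and is made by pericytes and other mesenchymal cells, and EBF2 directs brown fat.

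The deposited values rose with the number of transcript models, so levels were compared between genes after division by that number. With the label synj1+/+ above the lesion, the median value rose from 11.5 in 3506 genes with 1 RefSeq transcript model to 1030 in 75 genes with 41 to 87 models, while the median value per model stayed between 10.3 and 20.6. The slope of the log value on the log number of models was 0.96 above and 0.91 below the lesion. The lowest value of the table was exactly 1, and 17 of 13535 genes above the lesion (0.126%) and 19 of 12246 below it (0.155%) lay under their number of models. The values were read from this as FPKM plus 1, summed over models. EBF3 has 22 models, EBF1 16, PAX2 10, EBF2 and LMX1B 3 each, and LHX1, LHX5, LBX1, TLX3 and EN1 have 1 each. Levels are therefore given per transcript model, a scale on which 1 stands for an FPKM of 0 if this reading holds. A level per model is a mean over models and not the total of a gene, so orders of genes depend on this choice. Ratios within a gene are the same on both scales.

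**Figure D1:**
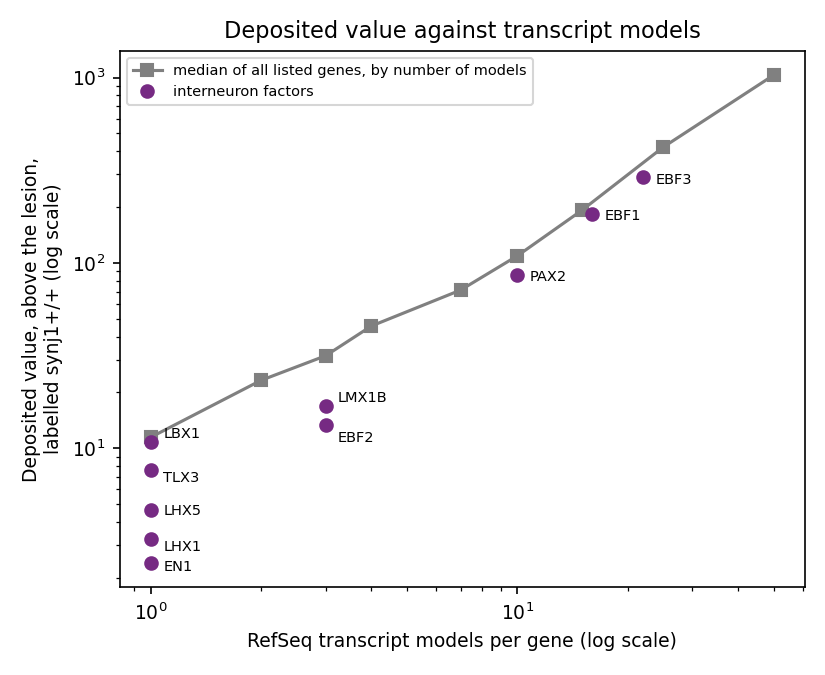
The authors' pooled value with the label synj1+/+ above the lesion (vertical, log scale) is plotted against the number of RefSeq transcript models of a gene (horizontal, log scale). Grey squares are medians of all listed genes in 9 bins and purple points are the 10 interneuron factors, which lie at or below the median line, with EBF3 and EBF1 at the right and EN1 and LHX1 at the lower left.

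EBF3 had the highest level of the 10 genes above the lesion. Its pooled value per model was 13.1 for the label synj1+/+ and 18.6 for the label synj1+/-, from deposited values of 289 and 408. The higher value was that of the label synj1+/-, by 1.41-fold or a log2 ratio of 0.50, and 1.31% of the genes listed above the lesion had a log2 ratio at least as high. With the labels exchanged, the same 1.31% would have a ratio at least as low. EBF3 is required for neuronal differentiation, and changes in the human gene cause a developmental disorder with hypotonia and ataxia. It lies at chr7:137193671-137322805 on the minus strand of GRCm38.p6. Below the lesion no value of EBF3 was analysed here.

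EBF1 was the next of the family. Its value per model was 11.5 and 13.3 above the lesion for the labels synj1+/+ and synj1+/-, and 8.58 and 11.5 below it. The log2 ratio was 0.21 above and 0.42 below the lesion. EBF1 (chr11:44618100-45008096) is best known from B lymphocytes and from perivascular cells. Of the B cell markers, BLNK alone of 7 was listed, at 2.25 and 1.64 per model above the lesion and 2.92 and 2.58 below it, while CD79A, CD79B, MS4A1, PAX5 and IGHM, among others, were not listed at either site. Of the pericyte and smooth muscle markers, 10 of 10 were listed above the lesion and 9 of 10 below. Their summed level per model went from 128.7 to 140.0 above the lesion and from 100.02 to 88.5 below it. RGS5, the pericyte marker with the highest deposited value, had log2 ratios of 0.28 above and -0.16 below. Below the lesion PDGFRB, a receptor that pericytes carry but that does not define them alone, had -0.49. TAGLN, a smooth muscle actin-binding protein, had -0.38, whereas 3 of the 9 listed had ratios above 0, namely ABCC9 (0.27), NOTCH3 (0.06) and KCNJ8 (0.01). The part of these cells in the EBF1 values was not tested.

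EBF2 was low at both sites. It had 4.44 and 5.78 per model above the lesion and 2.95 and 4.18 below it, in the order synj1+/+ and synj1+/-. Its log2 ratios were 0.38 above and 0.50 below, so it and EBF3 were the members with the highest ratios above the lesion. EBF2 (chr14:67233292-67430952) takes part in neuronal migration and in the brown fat lineage. The remaining family member, EBF4, held apart from the 10 genes as a cofactor, had 4.76 and 5.89 per model above the lesion, a log2 ratio of 0.31, and 5.38 and 5.46 below it, a log2 ratio of 0.02.

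The promoter sequences of RefSeq, on GRCm38, covered 7 of the 10 genes with 10 windows of 300 bases, each from 250 bases before to 50 after a start site; EBF2, LHX5 and LBX1 had none. The palindromic core that EBF dimers recognise, searched as CCCNNGGG on both strands, was in 2 of the 10 windows and in 13.7% of 32851 promoters. Those windows belong to EBF3 and to the third start site of PAX2, and they are printed because they are the members' promoters that hold letters of the family's own motif. The capitals mark the core, which starts 21 bases before the EBF3 start site and 36 bases before that of PAX2. In both it overlaps none of the other motifs searched.
EBF3 promoter, chr7:137314396-137314695, minus strand: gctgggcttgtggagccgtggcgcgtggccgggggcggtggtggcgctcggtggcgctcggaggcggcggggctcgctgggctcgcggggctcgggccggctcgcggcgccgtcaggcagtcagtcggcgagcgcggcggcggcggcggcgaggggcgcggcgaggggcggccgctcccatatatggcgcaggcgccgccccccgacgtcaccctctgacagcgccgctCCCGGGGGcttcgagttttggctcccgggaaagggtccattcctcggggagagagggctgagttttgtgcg
PAX2 promoter, chr19:44756656-44756955, plus strand: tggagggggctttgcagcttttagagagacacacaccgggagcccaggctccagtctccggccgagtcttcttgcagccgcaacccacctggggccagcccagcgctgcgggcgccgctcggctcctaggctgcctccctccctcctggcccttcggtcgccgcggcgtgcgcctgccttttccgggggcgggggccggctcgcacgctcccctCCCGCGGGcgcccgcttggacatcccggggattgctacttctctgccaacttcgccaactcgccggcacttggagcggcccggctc
The EBF3 window is 77.0% G and C and holds 46 CpG, and 1.44% of the promoters hold more, where the median promoter has 7. The homeodomain core TAATTA, searched on both strands, was in 0 of the 10 windows and in 5.29% of all promoters. The E-box CANNTG, the site of proneural factors, was in 5 of the 10 windows and in 72.3% of all promoters. The EBF3 window, the first windows of EBF1 and PAX2 and those of TLX3 and LHX1 hold neither the E-box nor TAATTA. A match is a description of the letters and not a site of binding.

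The values of the EBF genes can hold reads from other transcripts of the same place. In GENCODE M21, EBF3 overlaps the antisense genes Gm45278 and Gm10578, EBF1 overlaps Gm12158, EBF2 overlaps 5 genes, PAX2 overlaps 3, and LHX5 and LMX1B overlap 1 each, while LHX1, LBX1, TLX3 and EN1 overlap none. The table lists none of these partners, and counting by strand is not stated, so a gene and its antisense partner cannot be told apart. Within 2 Mb of EBF3, 13 other genes were listed above the lesion, of which 1 was higher and 1 lower by a log2 ratio of 0.32 or more, with a median log2 ratio of 0.01. The nearest of them, 9430038I01RIK, had 15.1 and 15.2 as deposited, and GLRX3, a glutaredoxin, had 40.9 and 44.8. Both had log2 ratios closer to 0 than that of EBF3. The neighbours past the threshold above the lesion, named after their values were seen, were C030029H02RIK, with 3.18 and 4.53 as deposited and a log2 ratio of 0.51, and LRRC27, with -0.55. Below the lesion 10 were listed, with 2 higher and 1 lower and a median log2 ratio of 0.21. The lower was 9430038I01RIK at -0.58, and the higher were STK32C at 0.42 and TCERG1L at 0.37.

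Among the factors of inhibitory interneurons, PAX2 had the highest number of models and the highest level per model. Its values per model above the lesion were 8.59 and 9.37, and below the lesion 6.89 and 9.67, for the labels synj1+/+ and synj1+/-. The log2 ratio was 0.12 above and 0.49 below the lesion, and the low value was that of synj1+/+ below the lesion. PAX2 (chr19:44746601-44838269) is kept in most adult dorsal inhibitory neurons.

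LHX5, which with LHX1 maintains PAX2 in the dorsal horn, had 4.62 and 5.43 above the lesion and 3.57 and 4.91 below it. Its log2 ratios were 0.23 and 0.46. LHX1 had 3.26 and 2.90 above the lesion and 2.41 and 3.25 below it. Its log2 ratio was -0.17 above and 0.43 below, the only change of sign between sites among the 9 genes listed at both. LHX1 lies at chr11:84517975-84525534 and LHX5 at chr5:120431886-120441457.

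EN1 had low levels and was slightly lower with the label synj1+/- at both sites. It had 2.40 and 2.24 above the lesion and 2.68 and 2.64 below it, log2 ratios of -0.10 and -0.02. EN1 (chr1:120602487-120607991) was also the only one of the 9 genes with a higher value below than above the lesion in the groups labelled synj1+/+.

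LBX1, shared by inhibitory and excitatory neurons of the late dorsal horn, had 10.8 and 13.0 above the lesion and 8.82 and 12.2 below it. Its log2 ratios were 0.27 and 0.47. LBX1 (chr19:45232684-45236841) was the gene with 1 model that had the highest level in all 4 groups.

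Both factors of excitatory interneurons had higher values with the label synj1+/- at both sites. LMX1B, which also specifies serotonin neurons of the brainstem, had 5.60 and 6.65 per model above the lesion and 4.00 and 5.73 below it. Its log2 ratio was 0.25 above and 0.52 below, the latter the highest of the 9 genes listed there. TLX3, which selects a glutamate over a GABA fate, had 7.68 and 8.44 above the lesion and 4.81 and 6.28 below it, log2 ratios of 0.14 and 0.38. LMX1B lies at chr2:33560965-33641208 and TLX3 at chr11:33200752-33203588.

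**Figure D2:**
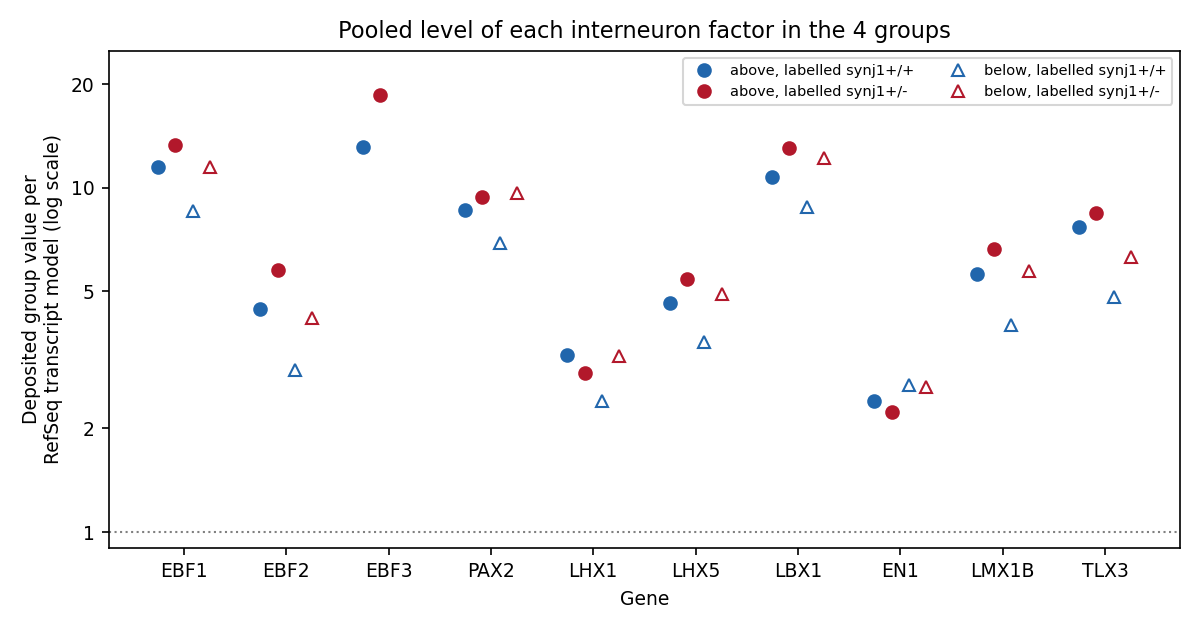
The pooled value per transcript model (vertical, log scale) of each of the 10 factors (horizontal) in the 4 groups, with filled circles above and open triangles below the lesion, blue for the label synj1+/+ and red for synj1+/-. There are no error bars because only pooled values were deposited. In 8 genes above and in 8 below, the red symbol is higher, EBF3 above the lesion with the label synj1+/- is the highest point at 18.6, and EN1 and LHX1 lie nearest the dotted line at 1.

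Above the lesion the order of levels per model with the label synj1+/+ was EBF3, EBF1, LBX1, PAX2, TLX3, LMX1B, LHX5, EBF2, LHX1 and EN1. The group labelled synj1+/- had the same order except that EBF2 stood before LHX5. Below the lesion the order with that label was LBX1, EBF1, PAX2, TLX3, LMX1B, LHX5, EBF2, EN1 and LHX1, and with the label synj1+/- LHX1 stood before EN1. Whether neighbours in these orders differ beyond the spread between animals cannot be said from pooled values. Read as deposited, the order above the lesion would have been EBF3, EBF1, PAX2, LMX1B, EBF2, LBX1, TLX3, LHX5, LHX1 and EN1, because models add to the value. Below the lesion EBF1 would then have come first with both labels, followed by PAX2, LMX1B, EBF2 and LBX1. Which scale is closer to the amount of transcript was not tested.

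Above the lesion 8 of the 10 genes had a log2 ratio above 0, where 49.0% of all genes listed there did. The median of the 10 genes was 0.22, against -0.0039 over all genes. The threshold was a log2 ratio of 0.32 in size. It was passed by 2 genes with a higher value for the label synj1+/-, EBF2 and EBF3, where 4.18% of all genes passed it, and by 0 genes in the other direction, where 7.45% did. With a pseudocount of 10, or after centring on neuron markers, EBF2 fell under the threshold. EBF2, at 0.38, lay just inside the threshold and LBX1, at 0.27, just outside it. The 5th and 95th percentiles of all listed genes were -0.39 and 0.30.

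Below the lesion 8 of the 9 genes listed there were higher with the label synj1+/-, where 52.8% of all genes were. The same 8 genes, all but EN1, were higher by more than the threshold, where 8.06% of all genes were, and 0 were lower by it, where 11.5% were. The count of 8 became 2 with a pseudocount of 10 and 0 after centring on neuron markers, where 3.10% and 1.78% of all genes were higher. Their log2 ratios lay between 0.38 for TLX3 and 0.52 for LMX1B, and 7 of the 8 were over the 95th percentile of all listed genes, 0.39. The median of the 9 genes was 0.46, against 0.014 over all genes. Fewer cells of a type and less RNA per cell cannot be told apart in such bulk samples.

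Genes of low value passed the threshold more often. In 4 bins of equal size by mean deposited value, from low to high, 8.18%, 4.66%, 2.70% and 1.17% of genes above the lesion and 11.3%, 8.33%, 6.03% and 6.58% below it were higher by the threshold. Of the 10 genes above the lesion, 5, 2, 1 and 2 fell in these bins, and those past the threshold were EBF2 in the second and EBF3 in the highest. Of the 9 genes below the lesion, 6, 1, 1 and 1 fell in the bins, and 5, 1, 1 and 1 of them were past the threshold. By value per model, a scale chosen after the data were seen, 9.57%, 4.52%, 1.65% and 1.00% of genes above the lesion and 13.2%, 7.61%, 5.85% and 5.55% below it were higher by the threshold. On that scale EBF3 fell in the third bin, and 4, 3, 3 and 0 of the 10 genes above and 4, 4, 1 and 0 of the 9 below fell in the bins, with 1, 0, 1 and 0 and 3, 4, 1 and 0 of them higher by the threshold.

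**Figure D3:**
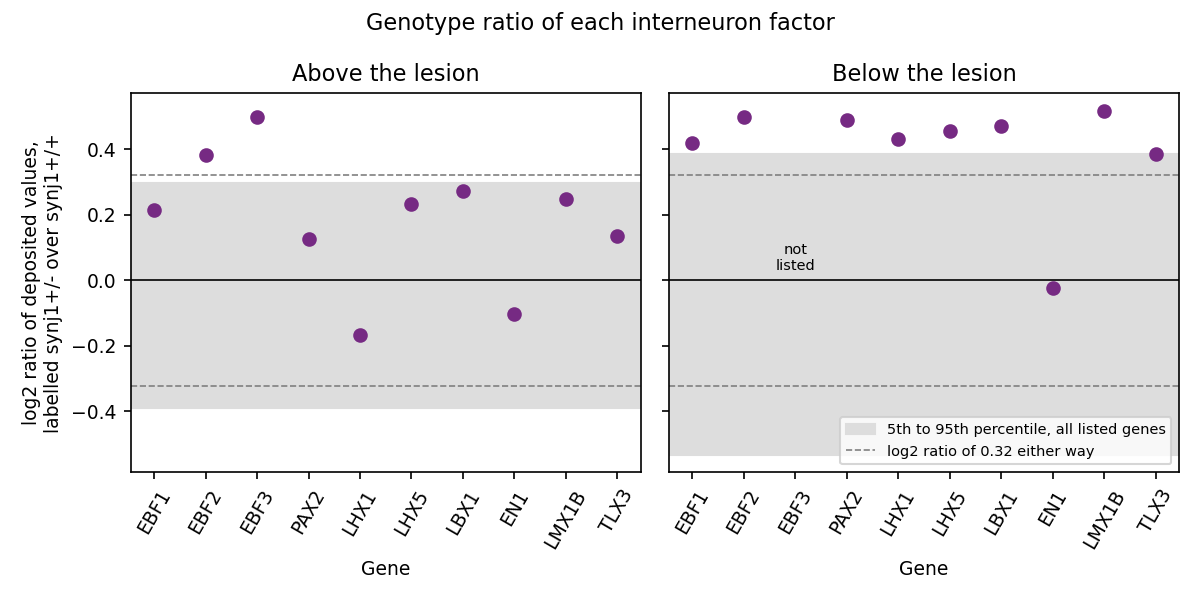
The log2 ratio of deposited values, labelled synj1+/- over synj1+/+ (vertical), of each factor (horizontal) above (left) and below (right) the lesion. The grey band spans the 5th to 95th percentile of all listed genes, dashed lines mark the threshold of 0.32 either way, and the points of 8 of 9 factors below the lesion lie between 0.38 and 0.52 whereas above it the points run from -0.17 for LHX1 to 0.50 for EBF3.

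The genotype ratio was larger below than above the lesion in 9 of the 9 genes listed at both sites, with a median difference of 0.22 on the log2 scale, where it was larger in 53.9% of 12023 genes with a median of 0.022. The difference ran from 0.08 in EN1 to 0.36 in PAX2 and 0.60 in LHX1. The levels of the sites were further apart with the label synj1+/+, where 8 of 9 genes had a lower value below than above the lesion, with a median log2 ratio of -0.42 that ran to -0.67 in TLX3. With the label synj1+/-, 6 of 9 were lower below, with a median of -0.15. Over all genes 50.2% and 44.5% were lower below, and the medians were -0.00083 and 0.022. The sites were normalized separately, and the segments of both sites may share mice. Of the neuron markers listed at both sites, 11 of 11 also had the larger genotype ratio below, with a median difference of 0.22, while their log2 ratios of below over above had medians of -0.04 and 0.11.

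If the deposited values hold a constant of 1 per transcript model, the ratios of low genes are smaller than those of their FPKM. With 1 taken off per transcript model, a scale chosen after the data were seen, EBF3 had 12.1 and 17.6 per model above the lesion and a log2 ratio of 0.53. On that scale the ratios of the other genes above the lesion were 0.48 for EBF2, 0.30 for LBX1 and LMX1B, 0.29 for LHX5, 0.23 for EBF1, 0.16 for TLX3, 0.14 for PAX2, -0.18 for EN1 and -0.25 for LHX1. Below the lesion EBF2 had 0.70, LHX1 0.67, LMX1B 0.66 and LHX5 0.60, and theirs were the ratios there that moved most from the main scale. PAX2, LBX1, TLX3 and EBF1 had 0.56, 0.52, 0.47 and 0.46 there, and EN1 had -0.04. Taking the same constant off both values of a gene cannot change the sign of its ratio.

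Set against all genes of a site in the direction of the labels, EBF3 and EBF2 had the highest ratios of the 10 above the lesion, where 1.31% and 2.77% of the listed genes had a log2 ratio at least as high. The shares were 6.05% for LBX1, 7.55% for LMX1B, 8.38% for LHX5 and 9.87% for EBF1, and 19.2% and 21.0% for TLX3 and PAX2. LHX1 and EN1 lay in the lower part of the distribution, with 80.9% and 71.6%. Below the lesion the share was 1.80% for LMX1B, 2.05% for EBF2, 2.24% for PAX2, 2.54% for LBX1, 2.87% for LHX5, 3.42% for LHX1, 3.89% for EBF1 and 5.11% for TLX3. EN1 had 57.0% there, so the 8 other genes lay close together and EN1 apart from them. With the labels exchanged, the order of the ratios would be reversed, and each share would be that of genes with a ratio at least as low. Because the group was formed with such values known, these positions describe the genes and test nothing.

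By gene, the level below over above the lesion with the label synj1+/+ was lowest in TLX3, at a log2 ratio of -0.67, and in EBF2, at -0.59. It was -0.48 in LMX1B, -0.43 in LHX1, -0.42 in EBF1, -0.37 in LHX5, -0.32 in PAX2 and -0.29 in LBX1, and EN1 had 0.16. With the label synj1+/-, EBF2 and TLX3 were again the lowest, at -0.47 and -0.43. EBF1 and LMX1B had -0.21 each, LHX5 -0.15 and LBX1 -0.09, whereas PAX2, LHX1 and EN1 had 0.04, 0.16 and 0.24.

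The lists of further inhibitory, excitatory, late-born, progenitor and motor neuron factors had smaller medians than the 10 genes at both sites. In these and the other lists, genes are counted as higher or lower where they passed the threshold. Of 13 further inhibitory factors, 6 were listed at each site. Above the lesion 1 was higher and 0 were lower by the threshold with a median log2 ratio of 0.16, and below it 2 were higher and 0 lower with a median of 0.09. Of 23 further symbols of excitatory factors, of which DRGX and PRRXL1 name the same gene, 11 were listed above the lesion, with 3 higher, 1 lower and a median of 0.14. Below the lesion 10 were listed, with 4 higher, 0 lower and a median of 0.21. PRRXL1, the partner of TLX3 and LMX1B in pain-related neurons, had 6.34 and 8.22 per model above the lesion and 4.42 and 6.16 below it, log2 ratios of 0.38 and 0.48.

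Of 34 late-born and laminar factors, 24 were listed above the lesion, with 2 higher, 1 lower and a median of 0.04, and 22 below it, with 3 higher, 1 lower and a median of 0.11. BCL11B had a log2 ratio of 0.34 above the lesion and BCL11A, a zinc finger factor of dorsal horn wiring, 0.41 below it. Of 23 progenitor domain factors, 13 were listed above the lesion, with 1 higher, 0 lower and a median of 0.13. Below it 12 were listed, with 1 higher, 1 lower and a median of -0.03, and the lower gene was PAX6, a factor of neural progenitors, at -0.48. Of 9 motor neuron genes, 8 were listed at each site, with 0 higher, 2 lower and a median of -0.06 above the lesion and 1 higher (ESRRB, 0.34), 0 lower and a median of 0.25 below it.

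The cofactors with which these proteins work, such as the LDB1 and SSBP adaptors of LIM factors, PBX partners and TLE corepressors, had median log2 ratios near 0. All 23 were listed above the lesion, with 0 past the threshold in either direction and a median of 0.08. Below the lesion 18 were listed, with 1 higher, 0 lower and a median of 0.05. That gene was SKOR1, a corepressor bound by LBX1, at 1.73 and 2.91 per model and a log2 ratio of 0.75, where above the lesion it had 2.87 and 2.83.

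The genes of inhibitory transmission, at higher levels, had larger ratios below than above the lesion as well. Of 6 such genes, 0 passed the threshold above the lesion, with a median log2 ratio of 0.0083, and 4 were higher below it, with 0 lower and a median of 0.36. SLC32A1, the vesicular transporter of GABA and glycine, had 83.8 and 115 per model below the lesion, a log2 ratio of 0.45, and 93.0 and 95.9 above it. GAD1, the main GABA-synthesising enzyme, had 29.8 and 39.5 below the lesion, a log2 ratio of 0.41. GAD2 and the glycine transporter SLC6A5 had 0.35 and 0.36 there. Of 3 vesicular glutamate transporters, 2 were listed, with 0 past the threshold above the lesion and 1 below it. SLC17A6, which dorsal horn excitatory neurons use, had log2 ratios of 0.09 above and 0.24 below. The gene past the threshold was SLC17A7, chosen after its values were seen and low at 1.64 and 3.51 per model.

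Peptides and calcium-binding proteins of interneurons had medians above 0 at both sites. Of 19 listed, 6 were higher and 2 lower by the threshold above the lesion with a median of 0.22, and 8 were higher and 2 lower below it with a median of 0.25. SST, somatostatin, had 134 and 168 per model above the lesion and 97.4 and 142 below it, log2 ratios of 0.33 and 0.54. TAC2, neurokinin B, had 0.42 and 0.66. CCK, which marks excitatory neurons of the deeper dorsal horn, had 0.40 above the lesion, and GRP, the itch peptide, had 0.72 below it. NPY, neuropeptide Y of inhibitory neurons, was lower below the lesion, at 23.6 and 15.3 per model and a log2 ratio of -0.63.

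**Figure D4:**
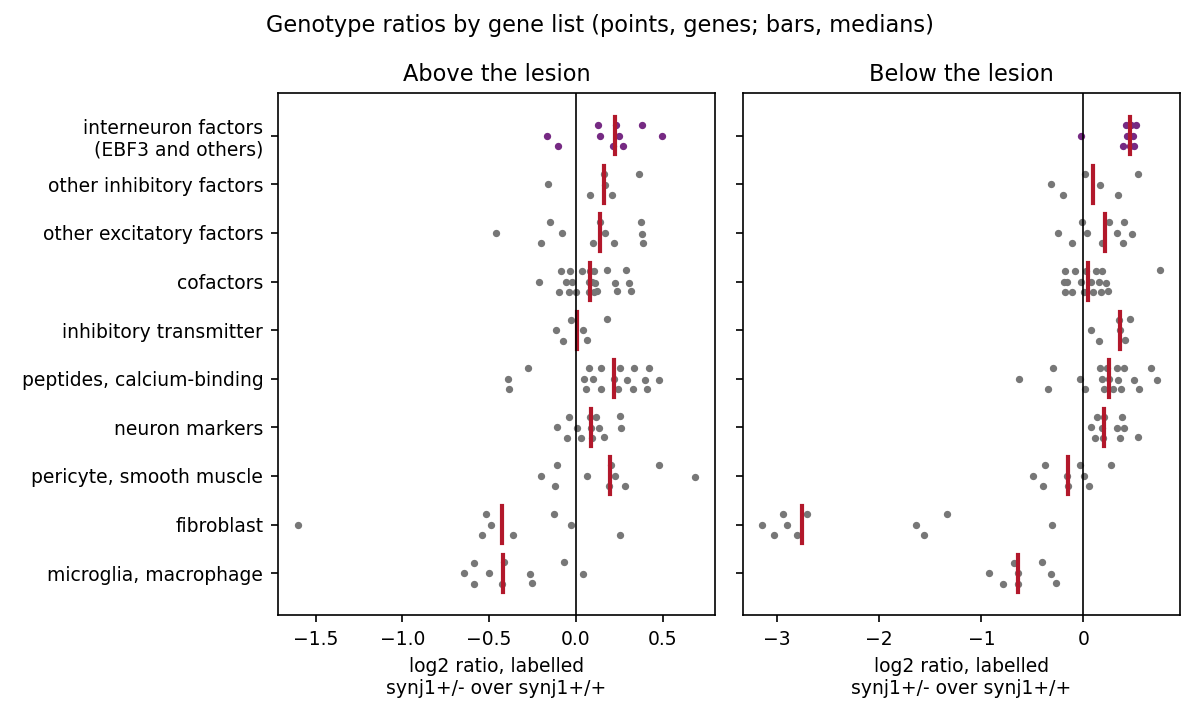
Log2 ratios, labelled synj1+/- over synj1+/+ (horizontal; the panels have different scales), of the genes of 10 lists above (left) and below (right) the lesion. Purple points are the interneuron factors, grey points the genes of other lists, and red bars the medians, which were 0.22 above and 0.46 below for the interneuron factors, 0.09 and 0.20 for neuron markers and -0.43 and -2.76 for fibroblast markers.

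General neuron markers had median ratios of the same direction and smaller size. Above the lesion 13 of 14 were listed, with 0 past the threshold in either direction and a median of 0.09, and their summed level per model went from 4325 to 4460. Below it 11 were listed, with 5 higher, 0 lower and a median of 0.20, and the sum went from 4385 to 5131. SNAP25, the synaptic membrane protein with the highest deposited value of the list, had log2 ratios of 0.25 and 0.39. SYT1, CELF4 and INA had 0.54, 0.37 and 0.36 below the lesion. With the neuron marker median taken off, 1 of the 10 factors was higher by the threshold above the lesion, where 2.32% of all genes were. Below it 0 of 9 were, where 1.78% of all genes were. The part of the amount of neuronal RNA in the factors' ratios was not tested.

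The medians of fibroblast and of microglia and macrophage markers were lower with the label synj1+/-. Below the lesion 9 of 10 fibroblast markers were lower by the threshold with the label synj1+/-, 0 were higher by it and the median was -2.76. COL3A1 and COL1A1, fibrillar collagens, had -3.14 and -2.91, IGFBP6 -3.03, LUM -2.95 and DCN, decorin, -2.81, and the summed level per model went from 371.8 to 66.1. Above the lesion 8 were listed, with 5 lower and 0 higher by the threshold and a median of -0.43, and the sum went from 47.9 to 38.3. PDGFRA, the fibroblast marker with the highest deposited value there, had a log2 ratio of -0.13. Below the lesion it had -0.31 and was the only marker of the list not past the threshold. Of the microglia and macrophage markers, 6 of 10 above the lesion and 6 of 8 below it were lower by the threshold and 0 higher by it, with medians of -0.42 and -0.64. Their sums per model went from 1509 to 1039 and from 2026 to 1326. C1QC, a complement subunit, had -0.65 at both sites, C1QB -0.59 and -0.68, and the lysosomal CD68 -0.50 and -0.79.

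Astrocyte markers were listed in full, with 0 of 6 past the threshold above the lesion, a median of -0.27 and sums of 3961 and 3255 per model. Below it 2 were lower and 0 higher, with a median of -0.21 and sums of 3515 and 2742. GFAP had -0.29 and -0.39 and AQP4 -0.40 below. Of the oligodendrocyte markers 2 of 6 were listed, with 0 past the threshold, medians of -0.12 and 0.04, sums of 2324 and 2235 above and 2176 and 2060 below, and -0.05 and -0.09 for MOBP; MBP, MAG and CNP, among others, were not listed. Endothelial markers were all listed, with 1 higher, 0 lower and a median of 0.14 above and 0 higher, 1 lower (CDH5, -0.61) and a median of -0.14 below. Their sums were 77.6 and 82.2 above and 106.4 and 96.7 below, and FLT1 had 0.18 and 0.15. The B cell medians were those of BLNK, -0.46 and -0.18. Among the pericyte and smooth muscle markers 2 were higher and 0 lower above the lesion with a median of 0.20, and 0 were higher and 3 lower below it with a median of -0.16. The part of these shifts in the factors' ratios was not tested.

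Peripheral cells that could enter such segments were also looked for, because EBF and TLX3 genes are expressed in sensory ganglia. Of 9 primary sensory neuron markers 4 were listed at each site, and the defining AVIL, SCN10A, TRPV1 and P2RX3, among others, were not listed. At each site 1 was higher and 1 lower by the threshold, with medians of 0.05 and -0.15 and sums of 65.7 and 77.8 above and 53.0 and 55.2 below. CALCA, which motor neurons also make, had 0.59 and 0.37, and PRPH, which had the highest deposited value of the list below the lesion, -0.01 there. Of 6 Schwann cell markers 3 were listed above the lesion, with 1 higher, 0 lower and a median of -0.15, and 4 below it, with 0 higher, 2 lower and a median of -0.29. Their sums were 106.7 and 96.8 above and 136.2 and 112.2 below; PMP22 had -0.15 and -0.21, and NCMAP had -0.37 below.

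The segments carried the Hox code of the cord, and 0 of 8 forebrain factors were listed at either site. Of 17 Hox genes 12 were listed at each site. HOXC10, named after its values were seen, had 5.95 per model above and 33.5 below the lesion with the label synj1+/+, and 7.86 and 38.0 with the label synj1+/-, the order that a more caudal segment has. Between genotypes 6 Hox genes were higher and 0 lower above the lesion with a median of 0.31, and 4 were higher and 1 lower below it with a median of 0.16. HOXB8, with the highest deposited value of the list, had 0.29 and 0.47.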

How the data were processed

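RNA of 12 libraries in 4 groups was sequenced after a random-primed TruSeq preparation. Per the labels and the study's methods, the authors removed reads at random to the smallest library of each site, aligned them with STAR 2.5.4b to GRCm38.p6, summarised genes with Cuffdiff 1.3.0 and applied upper quartile normalization within a site; the annotation is not given in the sources used here. The deposited table holds 1 pooled value per genotype and site (used here), and the authors' fold changes, p-values and q-values (not used). A second deposited table of genes under a p-value limit was not used.

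Samples were grouped by genotype and site in their labels. A log2 ratio of the pooled values was computed for each gene within a site, and a log2 ratio of 0.32 in size was taken as the threshold. Transcript models were counted in RefSeq for GRCm38.p6, with a match for 99.2% of the genes above and 99.3% of those below; overlaps were read from GENCODE M21. Whether a value is FPKM plus 1 summed over models was inferred from the table. Members and the 22 other lists were chosen with earlier results of these data known. Named genes were all members and, per list and site, at most 4 genes past the threshold, by size of ratio. The latter lay outside the lowest of 4 bins of mean value. Also named were SYNJ1, APOE and, per site, the gene of each marker list with the highest mean deposited value, which need not be the highest per model. Genes said to be chosen after their values were seen came besides. EBF4, SLC17A6, the neighbours of EBF3 and marker genes given as not listed were named outside this rule. Some genes of the lists are not reported here. Alternatives were a pseudocount of 10, a constant of 1 taken off, centring on all genes or on neuron markers, the upper 3 of 4 bins of mean value only, folds of 1.1 and 1.5, the mean, and leaving out EBF3; a constant of 1 taken off per transcript model and bins of the value per model were chosen after seeing the data. Steps were tested on simulated data. Python 3.11.15, numpy 2.4.6, pandas 2.3.3 and matplotlib 3.10.9 were used.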

Additional observations from a re-analysis of the deposited data

How the results depend on the processing

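Above the lesion, the median log2 ratio of the factors stayed between 0.13 and 0.26 under all alternatives tried. The count of factors higher by the threshold moved from 2 to 1 with a pseudocount of 10 (177 of all 13647 genes), to 1 after centring on neuron markers (2.32%), to 0 at a fold of 1.5 (0.791%) and to 6 at a fold of 1.1 (19.1%), where 1 was lower (23.0%). Below the lesion, the median of 0.46 became 0.24 with a pseudocount of 10 and 0.26 after centring on neuron markers, both under the log2 ratio of 0.32, and was 0.40 to 0.56 otherwise. The count of 8 higher became 2 with a pseudocount of 10 (3.10% of all genes), 0 after centring on neuron markers (1.78%), 3 among factors in the upper 3 of 4 bins of mean value (all 3 left there; 6.98%) and 0 at a fold of 1.5 (1.16%). Centring on neuron markers takes 0.09 above and 0.20 below off every ratio. Of the single factors' ratios under the alternatives, 87 kept their side of the threshold, 16 fell under it in the same direction and 0 changed sign. All 16 came from the pseudocount of 10 or from centring on neuron markers. Constants and pseudocounts cannot change a sign, and the ratios in the upper 3 of 4 bins are the main ones. The tally is therefore no measure of stability. Pooled values allow no leaving out of a library. No paired analysis was possible because the table holds no value of a single library and the groups share no sample numbers. What depth limits cannot be read from pooled values.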
